A study of Mus musculus with 12 samples.

Results

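The genes described here are 9 secreted angiogenic and growth factors that cardiomyocytes (CMs) can make: *Vegfa*, *Vegfb*, *Angpt1*, *Fgf1*, *Fgf16*, *Fgf21*, *Gdf15*, *Tgfb2* and *Mstn*. The rule that chose them used their names and no measured value, although earlier results of these data were known when the list was made. A region belonged to a gene if it overlapped the gene body extended by 5 kb on either side, called the gene's window below. All 9 symbols were found among the 21938 protein-coding genes of GENCODE M21, and their windows held 40 of the 53754 control regions and 30 of the 45521 KO regions.

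H3K27ac, a histone mark of active promoters and enhancers, was mapped by CUT&RUN, in which an antibody guides a nuclease to cut out the marked DNA. The CMs came from the hearts of mice aged 10 to 12 weeks, were isolated by Langendorff perfusion and enriched by a low-speed spin, and 200000 cells entered each experiment. There were 4 groups of 3 libraries, an H3K27ac and an IgG group for each genotype. For each genotype a single list of enriched regions was deposited, with no signal and no value per replicate, so the depth of the libraries and the error between replicates are unknown, and no difference below could be tested. Where values of the lists are compared, they are the values of 1 list per genotype.

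Both genotypes carried floxed *Nrip1*, the gene of the corepressor RIP140. Control mice (Nrip1 f/f Cre-) had no Cre, and knockout mice (Nrip1 f/f Cre+, labelled Nkx2.5-RIP140KO, here KO) had in addition a Cre driven by *Nkx2.5*, a gene that is active from early heart development on. The deletion therefore dates from before adulthood, and since no control mouse carried Cre, the presence of Cre cannot be told apart from the deletion. The last exon of *Nrip1*, which the floxed allele removes (chr16:76287400-76295015, GRCm38), held 2904 bp of control regions and 0 bp of KO regions. At least 1 annotated start was inside a region for 7 of 7 CM marker genes in both lists. The same held for 7 of 7 endothelial markers in the control and 6 of 7 in the KO list, for 0 of 7 fibroblast and 0 of 6 macrophage markers in both, and for 1 and 2 of 4 mural cell markers. Endothelial marker windows held 133217 bp of control and 153091 bp of KO regions, and their part in the values below was not tested. In such bulk preparations a change in the number of cells of a type and a change in the mark per cell cannot be told apart.

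Heart muscle is densely supplied with capillaries, and CMs signal to the neighbouring vessels through secreted proteins. VEGF-A drives endothelial growth through the receptor Kdr, VEGF-B binds Flt1, and angiopoietin 1 stabilises vessels through Tek. Fibroblast growth factors act near their source (FGF1, FGF16) or as hormones (FGF21), and GDF15, TGF-β2 and myostatin belong to the TGF-β superfamily, in which myostatin restrains muscle growth. RIP140 has no DNA-binding domain of its own and is recruited by nuclear receptors, among them the ERR and PPAR families, which also control several of these factors.

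The following lengths of DNA before transcript starts show what lies at the starts whose coverage differed or was absent. They are the 250 bases before a RefSeq transcript start (GRCm38), read 5′ to 3′ on the strand of the gene, with matches to the GC box (GGGCGG), the hypoxia core (ACGTG), the ATF4 element (TTGCATCA) and the TATA box (TATAAA) in capitals. Both strands were searched, and in CACGTG the hypoxia core overlaps itself. The first and second *Vegfa* starts are shown because both lists covered the first and only the KO list the second. *Vegfb* is shown as a start covered in both, and *Gdf15*, *Fgf21* and *Mstn* as starts covered in neither. The second *Vegfa* start lies inside the gene, at +7206 bp, where GENCODE M21 has no start. The bases before it are therefore DNA of the gene body.
*Vegfa* first start, chr17:46032378-46032627, minus strand: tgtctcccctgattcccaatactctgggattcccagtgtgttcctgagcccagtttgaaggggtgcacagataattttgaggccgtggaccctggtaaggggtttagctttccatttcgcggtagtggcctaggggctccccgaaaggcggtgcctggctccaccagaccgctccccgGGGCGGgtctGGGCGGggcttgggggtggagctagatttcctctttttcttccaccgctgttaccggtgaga
*Vegfa* second start, chr17:46025164-46025413, minus strand: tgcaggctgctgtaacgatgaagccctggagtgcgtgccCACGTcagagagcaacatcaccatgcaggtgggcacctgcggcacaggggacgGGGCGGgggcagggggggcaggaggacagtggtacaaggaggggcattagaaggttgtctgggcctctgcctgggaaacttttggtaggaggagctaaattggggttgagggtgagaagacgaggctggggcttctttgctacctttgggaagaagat
*Vegfb*, chr19:6987652-6987901, minus strand: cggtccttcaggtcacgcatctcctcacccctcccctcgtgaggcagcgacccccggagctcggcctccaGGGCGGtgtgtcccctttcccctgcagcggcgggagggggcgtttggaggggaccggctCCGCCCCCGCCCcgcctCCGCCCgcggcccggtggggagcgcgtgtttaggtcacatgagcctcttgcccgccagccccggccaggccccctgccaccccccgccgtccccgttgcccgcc
*Gdf15* first start, chr8:70632457-70632706, minus strand: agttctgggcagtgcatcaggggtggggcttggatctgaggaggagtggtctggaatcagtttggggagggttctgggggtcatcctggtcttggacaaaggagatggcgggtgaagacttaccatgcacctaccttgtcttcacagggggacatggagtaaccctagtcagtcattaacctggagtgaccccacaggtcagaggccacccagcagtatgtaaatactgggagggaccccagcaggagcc
*Fgf21*, chr7:45615491-45615740, minus strand: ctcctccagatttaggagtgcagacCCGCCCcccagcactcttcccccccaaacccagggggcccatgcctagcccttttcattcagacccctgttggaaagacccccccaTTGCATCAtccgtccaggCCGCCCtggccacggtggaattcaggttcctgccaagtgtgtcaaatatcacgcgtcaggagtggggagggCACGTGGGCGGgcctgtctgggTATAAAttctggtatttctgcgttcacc
*Mstn*, chr1:53061390-53061639, plus strand: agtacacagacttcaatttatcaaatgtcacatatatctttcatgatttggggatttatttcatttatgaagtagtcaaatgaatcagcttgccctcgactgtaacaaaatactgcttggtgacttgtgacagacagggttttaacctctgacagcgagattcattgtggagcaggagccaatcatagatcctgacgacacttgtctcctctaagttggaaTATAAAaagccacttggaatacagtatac

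Counts of these sites were made in windows of 300 bases, the 250 shown and 50 more inside the transcript. The table of promoters held windows for 6 of the 9 genes that could be used, with 8 starts. The first *Vegfa* window had 62% G and C and held 2 GC boxes, at −72 to −67 and −62 to −57 relative to the start, and the *Vegfb* window had 75.3% G and C and 4 GC boxes. A GC box was present in 35.7% of all 32851 RefSeq promoter windows, whose median content of G and C was 52.7%. The first *Gdf15* window held 1 CpG, an observed-to-expected ratio of 0.0418 against a median of 0.384 over all promoters, and none of these motifs. *Fgf21* held an ATF4 element at −139 to −132, a motif found in 0.895% of all promoters, together with a TATA box at −28 to −23 and a hypoxia core in both orientations at −50 to −45 that runs into a GC box. *Mstn* had 41.3% G and C and a TATA box at −29 to −24, a motif found in 13.6% of all promoters. These matches are descriptions of the letters and not evidence that a factor was bound.

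Shorter stretches show matches of muscle and nuclear receptor motifs inside regions that both lists held, since MEF2 factors act in CMs and ERR is a partner of RIP140. The MEF2 motif or the ERR motif (TCAAGGTCA) is in capitals, with 25 bases on either side, on the strand of the gene. The *Vegfb* match lies past the end of that gene, in regions that hold the start of the neighbouring gene *Fkbp2*.
*Gdf15* MEF2 at −1.48 kb, chr8:70633908-70633967: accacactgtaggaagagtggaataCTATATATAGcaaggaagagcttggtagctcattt
*Gdf15* MEF2 at −2.56 kb, chr8:70634991-70635050: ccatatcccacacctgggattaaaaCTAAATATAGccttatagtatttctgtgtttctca
*Angpt1* MEF2 at +2.97 kb, chr15:42673980-42674039: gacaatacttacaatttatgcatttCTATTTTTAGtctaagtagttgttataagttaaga
*Angpt1* ERR at +110.6 kb, chr15:42566363-42566421: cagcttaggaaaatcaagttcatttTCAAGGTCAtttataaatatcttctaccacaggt
*Vegfb* ERR at +6.83 kb, chr19:6980793-6980851: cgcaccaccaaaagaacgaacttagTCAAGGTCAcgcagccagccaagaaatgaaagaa

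Of the 9 factors, 7 held regions in both lists, and *Fgf21* and *Mstn* held none in either. Over all protein-coding genes, 34.2% held no region in either list. The 40 control regions covered 153200 bp of the windows and the 30 KO regions 168987 bp. The whole lists had the same order, with 151 Mb in the 53754 control and 154 Mb in the 45521 KO regions. The widest control region measured 12436 bp and the widest KO region 21780 bp. By the position of their centers, 29 of the control and 23 of the KO regions were intronic, 2 and 2 lay at promoters (from 1000 bp before to 100 bp after a start), 5 and 2 upstream and 3 and 1 downstream. The share of a window inside regions had a median of 33.0% in the control and 33.4% in the KO list over the 9 factors, against 5.05% and 5.56% over all protein-coding genes.

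**Figure D1:**
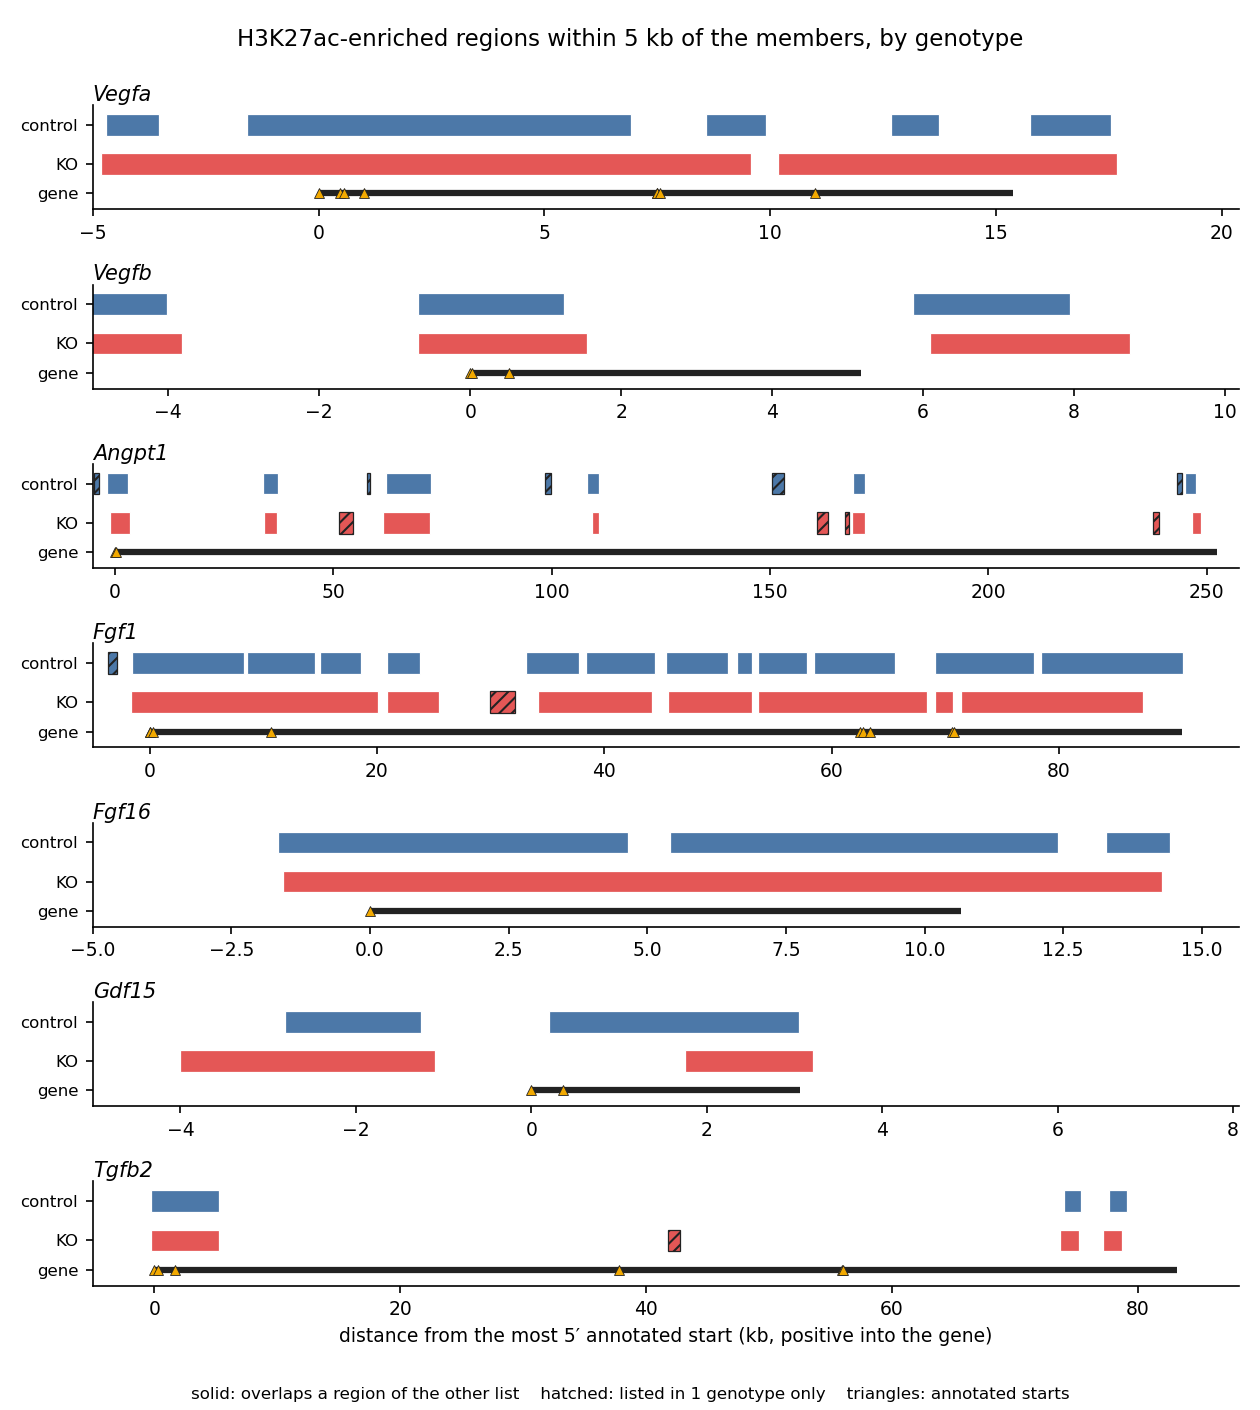
Each panel shows a gene on a scale of kb from its most 5′ annotated start, with control regions above, KO regions in the middle and the gene body with its annotated starts (triangles) below. *Vegfa* had 5 control and 2 KO regions, *Fgf16* 3 and 1, and *Fgf1* 13 and 8, while the hatched regions listed in 1 genotype only lay mostly at *Angpt1*.

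**Figure D2:**
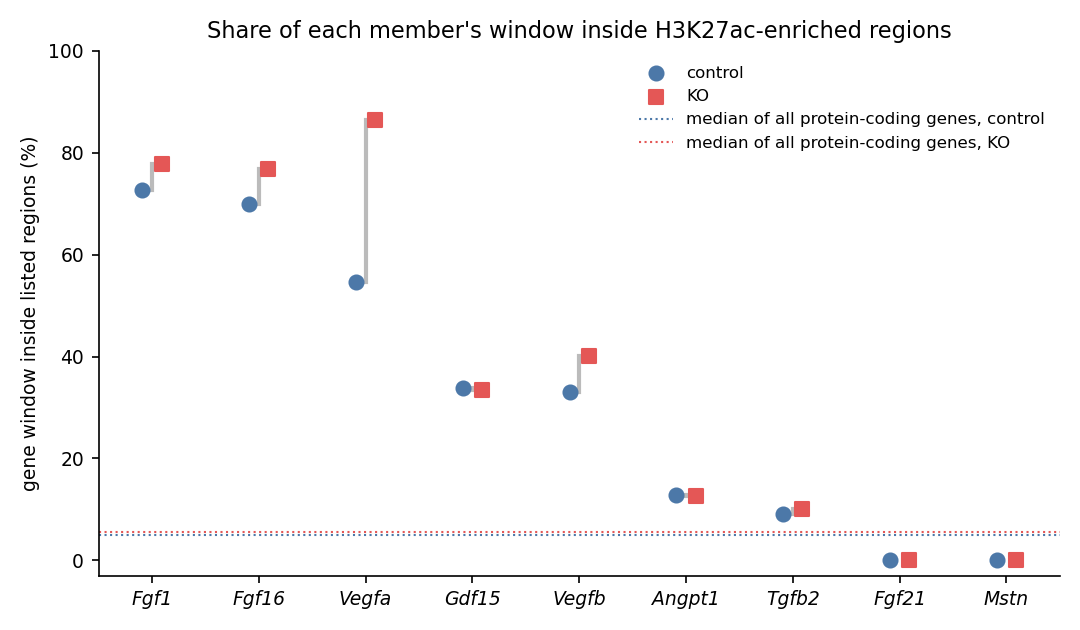
The y axis gives the percent of each gene's window inside listed regions, with circles for control and squares for KO, and dotted lines for the median of all protein-coding genes. *Vegfa* moved from 54.6% to 86.4%, and the other factors stayed within 10 percentage points.

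At these genes some regions were listed in 1 genotype only, and others were joined into wider regions in KO CMs. A KO-only region, one that no control region overlaps by even 1 bp, was found 6 times among the 30 KO regions, or 20%, against 21.5% of the whole KO list. Control-only regions numbered 6 of 40, or 15%, against 29.5% of the control list. The name of a region carries a number that was read here as its count of subpeaks, the peaks of single replicates merged into it. The sources do not state this reading. Each list kept regions present in at least 2 of 3 replicates, so on this reading a count of 2 is the fewest allowed. All 12 of the KO-only and control-only regions had a count of 2, the lowest in either list. The same held for 87.8% of all KO-only and 94.3% of all control-only regions. By contrast, 8 of the 30 KO regions, or 26.7%, each overlapped 2 or more control regions, against 9.65% of all KO regions. Only 1 of the 40 control regions, or 2.5%, overlapped 2 or more KO regions, against 5.16% of all control regions. The 8 wide KO regions lay at *Vegfa*, *Fgf1* and *Fgf16*, most of them at *Fgf1*. They closed 11 gaps between control regions with a median of 759 bp (233 to 2030 bp), close to the 743 bp over all 5261 such gaps in the genome. The 30 KO regions had a median width of 2905 bp against 2291 bp in the whole KO list, and the shares were not matched for width. The depth and signal behind such joining are not in the lists, and the part of sequencing depth in it was not tested.

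Covered length, the bp of a window inside regions, was compared as the log2 ratio of KO over control. Its median was 0.13 over the 7 factors with regions in both lists and 0.08 over the 12989 genes with regions in both. *Vegfa* alone passed a difference of 1.5-fold, and 16.3% of genes were as much longer in KO and 8.6% as much shorter.

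**Figure D3:**
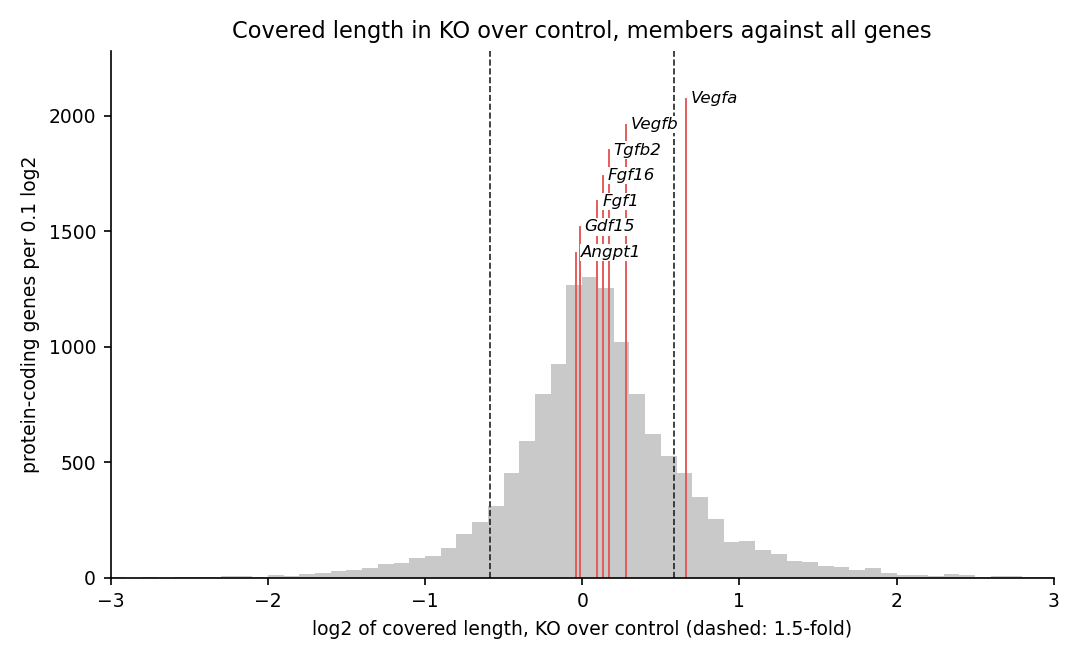
The histogram gives the number of protein-coding genes in steps of 0.1 of the log2 ratio of covered length, KO over control, with red lines at the 7 factors and dashed lines at 1.5-fold. The other 6 factors lie between −0.04 and 0.28 near the mode, and *Vegfa* lies at 0.66, above 86.6% of the genes; 35 genes fall outside the plotted range.

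*Vegfa*, the main endothelial growth factor that CMs make, had the largest log2 ratio of covered length of the 9 genes in windows extended by 5 kb, whereas over gene bodies alone *Gdf15* differed more (−1.12 against 0.67). Its gene (chr17:46016993-46032369, minus strand, ENSMUSG00000023951) had 13859 bp of its 25377-bp window covered in control and 21921 bp in KO CMs, 1.58-fold more. In control CMs there were 5 regions, the widest of which spanned 8518 bp from −1.59 to +6.93 kb around the first starts. In KO CMs there were 2 regions, of 14407 bp from −4.82 to +9.58 kb and of 7514 bp from +10.2 to +17.7 kb. The first overlapped 3 control regions and the second 2, and of the control length 97.7% was also covered in KO, so that no *Vegfa* region was listed in 1 genotype only. The gaps closed were 1935 bp upstream, 1663 bp at +6.93 to +8.59 kb and 2030 bp at +13.7 to +15.8 kb.

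The DNA covered in the KO list only at *Vegfa* included most of its exons. Exons were covered over 34.5% of their length in control and 98.3% in KO, introns over 70.5% and 95.3%, and the 5 kb upstream over 55.3% and 96.5%. Of the 8 annotated starts, the 4 within 1013 bp of the first, each of them a start of protein-coding transcripts, were covered in both lists. The other 4, between +7488 and +10997 bp and belonging to retained-intron transcripts, were covered in the KO list only. The second RefSeq start, at +7206 bp inside the gene and printed above, is not among these 8. It had 0 of its 300 bases covered in control and all 300 in KO. Of 23 hypoxia cores in the covered DNA of *Vegfa*, 13 lay in length covered in both lists and 10 in length covered in KO only. These lengths were 13541 and 8380 bp at *Vegfa*, and no excess is read from the counts.

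**Figure D4:**
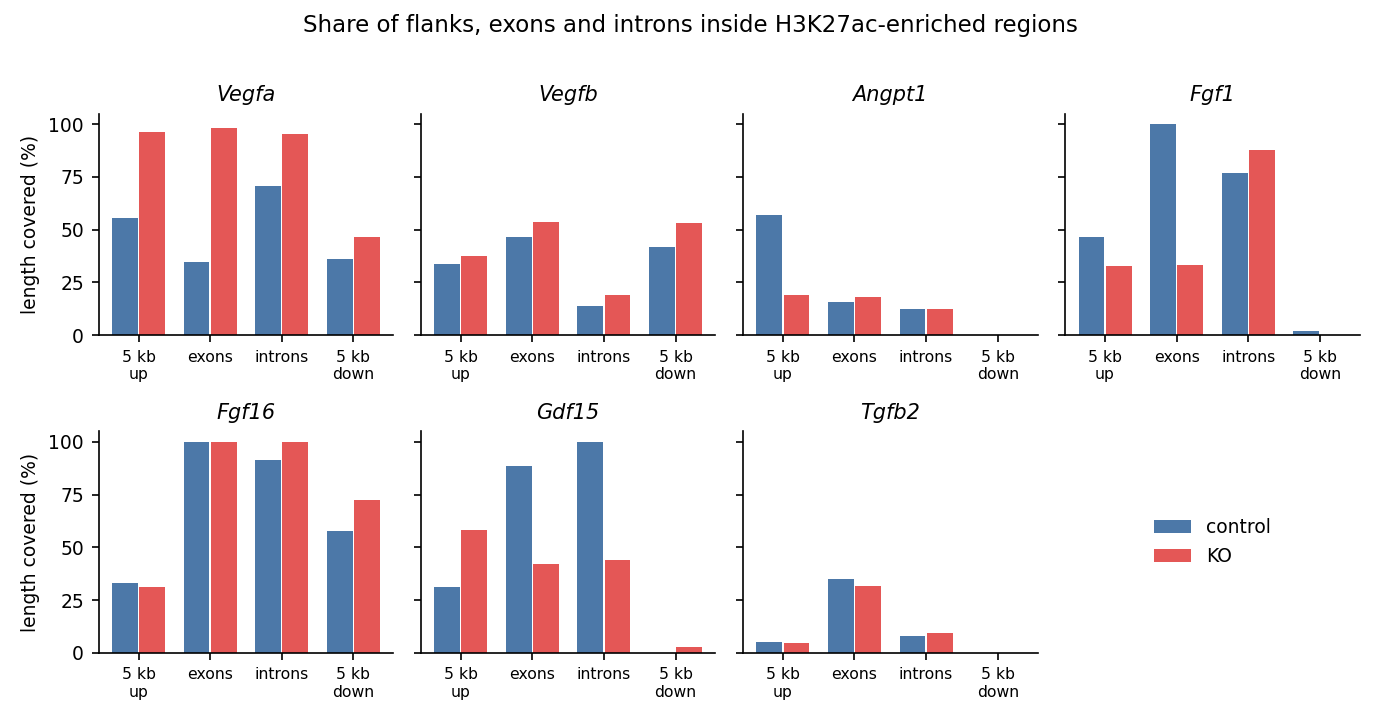
Bars give the percent of the 5 kb upstream, exons, introns and 5 kb downstream of each gene inside control (blue) and KO (red) regions. *Vegfa* exons went from 34.5% to 98.3%, while *Fgf1* exons went from 100% to 33.0% and *Gdf15* exons from 88.8% to 42.2%.

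*Vegfb* (chr19:6982473-6987651, minus strand, ENSMUSG00000024962), whose product is linked to coronary vessels and fatty acid handling, was nearly the same in both lists. It had 3 regions in each, and all 3 of its starts were covered in both by a region of 1933 bp in control and 2236 bp in KO. The other regions of its compact window lay on the starts of the neighbours *Fkbp2*, a peptidyl-prolyl isomerase, and *Dnajc4*, a J-domain protein. Each of the 3 was wider in KO, with log2 ratios of 0.35, 0.21 and 0.48, and the window total went from 5002 to 6077 bp (log2 0.28).

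*Angpt1* (chr15:42424723-42676977, minus strand, ENSMUSG00000022309), the ligand of Tek, was the gene at which the presence of regions differed most. Its total was nearly equal, with 33735 bp in control and 32889 bp in KO (log2 −0.04), but only 66.5% of the control length was covered in KO as well. Of 11 control regions 5 were control-only, and of 10 KO regions 4 were KO-only. The control-only regions were 774 to 2817 bp wide and included one upstream of the gene at −4.74 to −3.61 kb, and the KO-only regions, 835 to 3210 bp wide, all lay in introns between +51.3 and +239.0 kb. Regions took up 2838 bp of the 5000 bp upstream in control and 948 bp in KO. The 6 loci held by both lists included the start, where regions of 4833 and 4542 bp covered both annotated starts, and a wide intronic locus at +61.4 to +72.4 kb with 10314 bp in control and 10687 bp in KO. Assigning each region by its center to the nearest annotated start of any gene gave *Angpt1* 3 control-only and 2 KO-only regions. The log2 ratio of *Angpt1* was then 0.21.

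The *Angpt1* window is 262255 bp long, and long windows more often held regions of 1 list only. Of 914 genes with windows of at least 200000 bp, 72.9% had a KO-only and 84.5% a control-only region, against 35.2% and 39.2% of all genes with a region. The 9 factors gave 3 genes with a KO-only region (*Angpt1*, *Fgf1* and *Tgfb2*) and 2 with a control-only region (*Angpt1* and *Fgf1*), all with windows of 93198 bp or more.

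*Fgf1* (chr18:38838673-38929472, minus strand, ENSMUSG00000036585), a growth factor without a signal peptide that acts on all FGF receptors, was the most heavily covered of the 9 in control CMs. Regions covered 73337 bp, or 72.8% of its window, in control and 78422 bp, or 77.8%, in KO (log2 0.10), a share above that of 99.4% of protein-coding genes in both lists. The 13 control regions corresponded to 8 KO regions, of which 5 overlapped 2 or more control regions each. The widest, 21780 bp from −1.64 to +20.1 kb, joined 3 control regions across gaps of 403 and 233 bp. A KO-only region of 2233 bp lay in an intron at +29.9 to +32.2 kb, 976 bp from the nearest control region. A control-only region of 780 bp lay upstream at −3.68 kb. The window also overlaps another coding gene, *Arhgap26*. With each region assigned by its center to the nearest annotated start of any gene, *Fgf1* had 60717 bp in control and 61985 bp in KO. The KO-only region was then not assigned to *Fgf1*.

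The 3′ end of *Fgf1* went the other way. All 5463 bp of its exons were inside control regions and 1805 bp, or 33.0%, inside KO regions, whereas introns went from 76.7% to 87.9%. The last control region reached from +78.5 to +90.9 kb and past the end of the gene, and the last KO region ended at +87.4 kb. Of 9 annotated starts, 9 were covered in control and 8 in KO, and the exception was a start of a coding transcript at +70724 bp, which fell in a gap of 671 bp between KO regions that a control region spanned.

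*Fgf16* (chrX:105764279-105774939, plus strand, ENSMUSG00000031230), which is expressed mainly in the heart, had its whole gene body inside a single region in KO CMs. That region, 15858 bp from −1.57 to +14.3 kb, overlapped all 3 control regions of 6317, 6984 and 1153 bp and closed gaps of 759 and 876 bp. Exons were fully covered in both lists, and introns over 91.6% in control and 100% in KO. The total went from 14454 to 15858 bp (log2 0.13), or from 70.0% to 76.8% of the window, and 98.4% of the control length was also covered in KO. No region was listed in 1 genotype only.

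*Gdf15* (chr8:70629393-70632456, minus strand, ENSMUSG00000038508), a stress-induced cytokine whose receptor Gfral is found in the brainstem, had equal totals and a different distribution. Regions covered 4411 bp in control and 4364 bp in KO (log2 −0.02). Inside the gene, a region of 2856 bp in control (+201 to +3056 bp) stood against 1460 bp in KO (+1749 to +3208 bp), a log2 ratio of −0.97. Upstream, 1555 bp in control (−2807 to −1253 bp) stood against 2904 bp in KO (−4001 to −1098 bp), a log2 ratio of 0.90. Only 64.9% of the control length was covered in KO, although both regions overlapped their counterpart and counted as shared. When the window was restricted to the gene body the log2 ratio was −1.12, so the near equality held only with the upstream flank included.

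The transcript starts of *Gdf15* fell into this difference. The first start was covered in neither list. The second, at +361 bp, was inside the control region and outside the KO region, and of the 300 bases around it 210 were covered in control and 0 in KO. This made *Gdf15* the gene by which the number of factors with a covered start was 7 of 9 in control and 6 of 9 in KO, against 48.5% and 51.2% of all protein-coding genes. The stretch before the second start held a palindromic hypoxia core at −83 to −78, in capitals in the 30 bases of chr8:70632161-70632190, minus strand, shown because it lay in the length covered in control only: cacagggcagggCACGTGtgagcatccagt. The hypoxia core was present in 19.6% of all promoters. The 2 MEF2 matches printed above lay in the upstream region that both lists held.

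*Tgfb2* (chr1:186622792-186705989, minus strand, ENSMUSG00000039239), a TGF-β ligand needed for heart development, was close to the same in both lists at its start. There, regions of 5487 bp in control and 5482 bp in KO covered the first 3 of its 6 annotated starts, and the other 3 were covered in neither. The loci at +73.7 to +75.4 kb and +77.2 to +79.1 kb had log2 ratios of 0.08 and 0.01. The difference in total, from 8402 to 9456 bp (log2 0.17), came mainly from a KO-only intronic region of 963 bp at +41.8 to +42.8 kb, which lay 31211 bp from the nearest control region. Without regions narrower than 1000 bp, and so without this one, the log2 ratio was 0.02.

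*Fgf21* (chr7:45613886-45615490, minus strand, ENSMUSG00000030827), the hormone-like factor of the set, and *Mstn* (chr1:53061640-53068079, plus strand, ENSMUSG00000026100), which encodes myostatin, held no region. The nearest control region to *Fgf21* lay 7285 bp away, was 868 bp wide and control-only. The nearest KO region lay 10768 bp away on a start of *Rasip1*, an endothelial regulator of vessel formation. The nearest regions to *Mstn* lay 11467 bp away in control and 11069 bp in KO and overlapped each other. Absence from a list says only that enrichment was not called in 2 replicates, since the depth is unknown.

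Of the DNA of the factors covered in either list, 69.7% was covered in both and 19.3% in KO only, and motif matches are read against these shares. All 7 MEF2 matches were covered in both lists (4 at *Angpt1*, 2 at *Gdf15* and 1 at *Fgf1*), as were 4 of 6 ERR matches. The other ERR matches lay in control-only length at *Tgfb2* and in KO-only length at *Fgf1*. The ERR match at *Vegfb*, covered in both lists, lay past the end of that gene in the regions on the *Fkbp2* start. Of 8 ATF4 elements, 3 were covered in both lists, 3 in control only and 2 in KO only. The direct repeat bound by PPAR had no exact match. An ERR match was present in 12.5% of the 40 control and 16.7% of the 30 KO regions, against 8.18% and 9.85% of all regions. A MEF2 match was present in 12.5% and 16.7%, against 9.61% and 10.97% of all regions. The regions of the factors were wider than most, with medians of 2780 and 2905 bp against 1846 and 2291 bp. Per kb of region, ERR matches numbered 0.0325 in control and 0.0294 in KO for the factors and 0.0327 and 0.0336 for all regions, and MEF2 matches 0.0455 and 0.0412 for the factors and 0.0379 and 0.0361 for all. The hypoxia core numbered 0.703 and 0.771 per kb for the factors and 0.662 and 0.675 for all.

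Among 18 receptors for these ligands, 15 held a region. KO-only regions were found at 9 and control-only regions at 10 of the 15, against 35.2% and 39.2% of all genes with a region, shares that rise with the length of the window as given above for *Angpt1*. The covered length was over 1.5-fold longer in KO at 2 and shorter at 2, against 16.3% and 8.6% of all genes, with a median log2 ratio of 0.08. *Nrp2*, a co-receptor for VEGF and semaphorins, had the highest ratio (16120 to 33066 bp, log2 1.04), with 4 KO-only and 0 control-only regions. *Kdr*, the VEGF-A receptor, went from 10 to 4 regions of which 4 control regions were control-only, while its covered length was 16989 bp in control and 21047 bp in KO. *Tek*, the receptor of angiopoietin 1, had 3 control-only and 0 KO-only regions with 37756 and 36176 bp covered. *Fgfr3* had the lowest ratio (1966 to 1025 bp, log2 −0.94). No region was found at *Fgfr4*, at *Klb*, the co-receptor of FGF21, or at *Gfral*. Several of these receptors are endothelial genes, and the part of endothelial nuclei in their regions was not tested.

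Of 27 other factors and antagonists, listed as secreted although *Fgf12* encodes an intracellular protein, 25 held a region. KO-only regions were found at 8 and control-only regions at 16, against the same 35.2% and 39.2%. These shares rise with the length of the window, and this list holds long windows such as the 602971 bp of *Fgf12*. The median log2 ratio of the list was −0.25 over the 22 covered in both lists, with 2 over 1.5-fold longer and 5 shorter in KO, against 16.3% and 8.6%. The rest of the 25 were covered in the control list only and have no ratio. Of the 27, 19 had an annotated start covered in control and 17 in KO, against 48.5% and 51.2% of all protein-coding genes. *Vegfc*, the lymphatic VEGF, had the highest ratio (2510 to 7732 bp, log2 1.62) and a start covered in KO only, and *Fgf12*, an intracellular FGF homologue, the lowest (4148 to 1705 bp, log2 −1.28). *Angpt2*, the antagonist of angiopoietin 1, had 3 control-only and 0 KO-only regions (11967 to 7733 bp), and *Fgf2* had 2 and 0 (28747 to 21584 bp). *Hgf* and *Bmp2* held none. All 16 transcriptional regulators held regions and covered starts in both lists, with a median log2 ratio of −0.04. *Ppara*, a regulator of fatty acid oxidation, had the highest ratio (13289 to 24196 bp, log2 0.86) and *Foxo1* the lowest (40438 to 24906 bp, log2 −0.70). *Ppargc1a*, the coactivator of ERR and PPAR, had 2 control-only and 0 KO-only regions with 72487 bp covered in control and 64473 bp in KO.

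**Figure D5:**
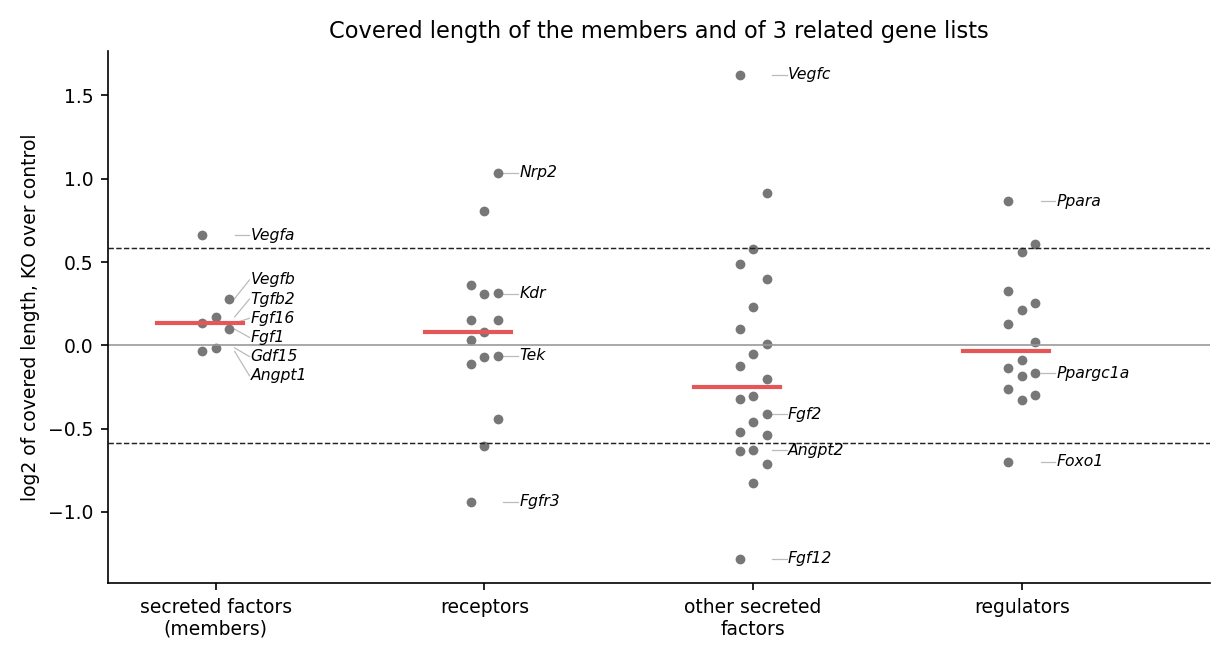
Each point is a gene covered in both lists, the y axis gives the log2 ratio of covered length, KO over control, red bars mark medians and dashed lines 1.5-fold. The 7 factors lie between −0.04 and 0.66. The extremes of the longer lists are *Nrp2* and *Fgfr3* among 15 receptors, and *Ppara* and *Foxo1* among 16 regulators. Among 22 genes plotted as other secreted factors they are *Vegfc* and the intracellular *Fgf12*.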

How the data were processed

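H3K27ac and IgG CUT&RUN libraries of CMs were grouped by genotype and antibody from the labels. Per the study's methods, alignment used Bowtie2 2.4.2 and the GRCm38 genome, SAMtools took out duplicate reads, and HOMER 4.11.1 called regions in every replicate over IgG and merged those present in 2 or more of 3. The tool names are those of the submitters' processing notes. The authors deposited for each list the start, end, name and score of every region, and the score is constant and was not used. The number in a region's name was read as its count of subpeaks, the peaks of single replicates merged into it.

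Of the deposited regions, 21 control and 14 KO regions off the assembled autosomes and sex chromosomes were dropped. Regions sharing at least 1 bp with the other list were called shared. Windows were the gene bodies of GENCODE M21 extended by 5 kb, covered length was cut at the window, and a start was covered if its base lay inside a region. Promoter sequences were those of RefSeq on GRCm38, and motifs were searched in the reference as exact letters on both strands with Python 3.11.15. The scripts were tested on simulated regions and sequences with known overlaps. With 1 list per genotype no test was made. Named genes were the 9 factors, coding genes whose start lies in a region of theirs, and from 3 lists the genes with the highest and lowest log2 ratio among those with at least 1000 bp covered in both lists, those with 2 or more regions of 1 genotype only and none of the other, and those with no region. *Rasip1*, at the nearest region of *Fgf21*, was named after its value was seen, and *Arhgap26* as another coding gene in the *Fgf1* window. The factors and lists were chosen with earlier results of these data known.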

Additional observations from a re-analysis of the deposited data

How the results depend on the processing

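No paired analysis was possible because each list pools its replicates, and leaving out a replicate was not run for the same reason. Of 57 values of the counts, the median log2 ratio and the motif shares under other choices, 38 stayed close to the reported value. Close meant within 1.5-fold for counts and covered length, and within the Wilson interval for shares. Of 211 values of single genes 176 stayed close. Those of *Fgf21* and *Mstn* were 0 under nearly all choices because these genes held no region. A log2 ratio could also change sign and count as close, as at *Tgfb2* with gene bodies extended by 20 kb (0.17 to −0.07). These counts are therefore no measure of stability for small differences. The counts of KO-only and control-only regions (6 and 6) were 13 and 23, at 6 and 5 genes, when a shared region needed a reciprocal overlap of 50%, which splits joined regions by construction. With gene bodies extended by 20 kb, 10 regions were control-only, and 5 genes held a KO-only and 5 a control-only region. The number of genes with a control-only region was 1 with gene bodies not extended, with regions of at least 1000 bp, and with equal numbers of the widest regions in both lists. Counting only regions with 3 or more subpeaks, a choice made after seeing the data, left 0 KO-only and 0 control-only regions at 0 and 0 genes by construction, since all of them have 2. A region could pass that choice in 1 list while its counterpart in the other did not. The region on the *Vegfb* starts, for instance, had 3 subpeaks in control and 2 in KO. The covered lengths under that choice can therefore compare different loci, and no difference is read from them. Searching the central 200 bp of a region lowered the share with an ERR match to 2.5% in control and 0% in KO (0.657% and 0.677% of all regions), with a MEF2 match to 0% and 10% (1.10% and 1.05%), and with a hypoxia core from 70% and 76.7% (60.9% and 67.6% of all regions) to 20% and 23.3% (10.4% and 10.7%), as shorter sequences hold fewer matches. Region lists without signal cannot show a change in the height of the mark inside a shared region.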

Other observations

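Extending the gene bodies by 20 kb took in further regions at most of the factors. At *Vegfa* the control list then held 9 regions over 16985 bp, 2 of them control-only, and the KO list 5 regions over 29305 bp, 1 of them KO-only. At *Vegfb* there were 6 and 7 regions over 11573 and 14976 bp, and at *Gdf15* 4 and 4 regions over 10719 and 13010 bp. *Mstn* then held a single region in each list, of 1155 bp in control and 1234 bp in KO, and *Fgf16* gained none. At *Tgfb2* the totals were 18566 bp in control and 17670 bp in KO.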
